A study of Mus musculus with 24 samples.

Results

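The 43 collagen genes of mouse embryonic stem (ES) cells are described here across 6 genotypes. They are the gene entries named Col, a number, a and a number, and they were found among 37310 entries in each of 2 deposited expression tables. By textbook class, 11 encode fibrillar collagen chains, 6 encode the collagen IV chains of basement membranes, and 26 encode other collagens. The cells were wild type (WT), or carried a knockout of Smchd1 (Smchd1 KO), of Dux (Dux KO), of both genes (Double KO), of Tet1, Tet2 and Tet3 (Tet TKO), or of the 3 Tet genes together with Smchd1 (quad KO). SMCHD1 is a chromatin silencing protein, DUX is a transcription factor of the early embryo, and the TET enzymes oxidise methylated cytosine. All cells grew without feeder cells on gelatin, in a medium with serum and the cytokine LIF, which keeps ES cells undifferentiated. Each genotype had 3 biological replicates, and the labels do not say whether replicates of a knockout are separate clones or cultures, so p-values measure the spread between these samples alone. The WT samples and the single and double knockouts of Smchd1 and Dux share a table, called the table of WT here, and Tet TKO and quad KO share the other, the Tet table. The tables were normalized separately, so comparisons were made within each of them.

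Collagens are trimers of chains that wind around each other as a triple helix, which needs hydroxylated prolines and glycine at regular steps. Fibrillar collagens are trimmed outside the cell and pack into the cross-linked fibrils of bone, skin, tendon and cartilage. Collagen IV instead forms the mesh of basement membranes, the thin sheets under epithelia and endoderm, together with laminins and nidogens. Other classes sit on fibril surfaces, form beaded filaments or anchoring fibrils, span the plasma membrane, or carry long sugar chains. The early mouse embryo makes collagen IV and laminin before any fibrillar matrix is laid down.

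Stretches upstream of 4 collagen genes are printed first, because these genes show the main patterns of the values that follow: Col5a1 and Col7a1 rose in quad KO, Col3a1 rose from a low level, and Col4a1 and Col4a2 varied together. The sequences are RefSeq promoter windows of build GRCm38.p6, of which 250 bases before the annotated start are shown, or 30 for the collagen IV pair. Windows were found for 35 of the 43 genes. Capitals mark a GC box, which reads GGGCGG, or CCGCCC where it lies on the other strand. They also mark a CCAAT box, in reverse ATTGG, and a TATA box, with the letters TATAAA on this strand and TTTATA on the opposite one. The motifs do not overlap each other in these stretches. Col5a1 lies at chr2:27886175-27886424, Col7a1 at chr9:108953336-108953585 and Col3a1 at chr1:45311288-45311537, each on the plus strand. The 30-base stretch of Col4a1 and Col4a2 lies at chr8:11312761-11312790 and is printed on the plus strand, upstream of Col4a2 and, read the other way, just inside the annotated start of Col4a1.
Col5a1: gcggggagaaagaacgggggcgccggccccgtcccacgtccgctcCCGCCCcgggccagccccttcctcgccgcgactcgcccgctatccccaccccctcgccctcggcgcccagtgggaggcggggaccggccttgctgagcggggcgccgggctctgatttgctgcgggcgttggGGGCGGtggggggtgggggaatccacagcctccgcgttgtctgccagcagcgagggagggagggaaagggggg
Col7a1: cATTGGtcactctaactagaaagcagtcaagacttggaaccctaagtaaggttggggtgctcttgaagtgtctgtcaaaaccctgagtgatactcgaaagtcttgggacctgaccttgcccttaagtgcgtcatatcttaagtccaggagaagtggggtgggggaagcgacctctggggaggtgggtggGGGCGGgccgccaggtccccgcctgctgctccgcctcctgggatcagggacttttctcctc
Col3a1: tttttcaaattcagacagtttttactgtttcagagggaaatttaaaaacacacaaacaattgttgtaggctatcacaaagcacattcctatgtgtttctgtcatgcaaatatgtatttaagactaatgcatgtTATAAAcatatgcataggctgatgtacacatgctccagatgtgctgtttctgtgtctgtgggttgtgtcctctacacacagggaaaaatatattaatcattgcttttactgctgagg
Col4a1 and Col4a2: ccgaggagctccCCAATttgttggcgctgc
The Col5a1 stretch held 28 CpG sites and 2 GC boxes, the Col7a1 stretch 7 CpG sites, 1 GC box and 1 CCAAT box, and the Col3a1 stretch no CpG site and 1 TATA box. Col4a1 and Col4a2 lie head to head on opposite strands, with annotated starts 22 bases apart, and the CCAAT box shown begins 32 bases before the Col4a2 start. In the 38 collagen windows, a GC box was found in 57.9% against 32.7% of 32851 windows of all genes, a CCAAT box in 34.2% against 33.8%, and a TATA box in 13.2% against 12.4%. The median number of CpG sites was 9.5 against 6. These are matches of letters and were not tested as binding sites.

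Library depth and labels were checked before the collagens were compared. Values are in CPM, reads scaled to a fixed effective library size, and errors are the standard deviation (SD) over 3 replicates. The libraries held 11399770 to 74448358 gene reads in the table of WT and 27325307 to 34589966 in the Tet table. As a check of the labels, Smchd1 transcript was 3.46-fold lower in Smchd1 KO than in WT (adjusted p = 0.000395). It was 2.43-fold lower in Double KO than in Dux KO (0.0294) and 7.31-fold lower in quad KO than in Tet TKO (0.000827). Dux was under 1 CPM in every sample. Several samples had a whole chromosome shifted against the WT mean, by the median log2 difference over its genes. These were chromosome 6 in Smchd1 KO 2 (-0.50), Dux KO 2 (-0.45) and Double KO 3 (-0.49), chromosome 8 in Dux KO 3 (-0.48) and chromosome 1 in Double KO 3 (0.52). Against the Tet TKO mean, chromosome 6 stood at -0.22 to -0.29 in the 3 quad KO samples, and chromosome 8 at -0.18, -0.25 and -0.27. Tested members on these chromosomes are named beside their results. RNA was measured in bulk, so fewer cells of a type and less RNA per cell cannot be told apart.

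ES cell markers were present throughout, and Pou5f1, Sox2 and Nanog had means of at least 52.4 CPM in every genotype. The summed CPM of the 12 ES markers in the tables ran from 5149 to 5207 for WT, from 4946 to 5603 for Smchd1 KO, from 4339 to 5048 for Dux KO and from 3101 to 4746 for Double KO. It ran from 4823 to 4925 for Tet TKO and from 3978 to 4195 for quad KO.

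Collagen transcript in these cells came mainly from 3 genes. Col4a1, Col4a2 and Col18a1 together made up 72.7% to 95.3% of all collagen CPM in each sample. Per kilobase of exon, a scale on which genes can be compared, Col18a1 led in WT with 50.9 CPM per kb, followed by Col4a1 with 41.5 and Col4a2 with 20.6. The next member, Col13a1, had 3.35 CPM per kb in WT. In Tet TKO the order began with Col18a1 at 76.3, Col4a1 at 22.6 and Col4a2 at 12.6 CPM per kb, and Col5a1 came next at 4.12. The sum over all collagens was 905 ± 14 CPM for WT, 1595 ± 859.5 for Smchd1 KO, 971 ± 275 for Dux KO and 1532 ± 1339.6 for Double KO (SD, n = 3). It was 924 ± 10.6 CPM for Tet TKO and 1216 ± 125 for quad KO. The 40 collagens other than the leading 3 came to 101 ± 2.60 CPM for WT, 146 ± 32.2 for Smchd1 KO, 148 ± 2.81 for Dux KO and 231 ± 75.2 for Double KO. Without the TET enzymes these 40 came to 137 ± 2.73 CPM for Tet TKO and 196 ± 2.70 for quad KO. By class, fibrillar collagens came to 43.7 ± 1.62 CPM for WT, 75.7 ± 21.4 for Smchd1 KO, 62.0 ± 10.9 for Dux KO, 113 ± 45.3 for Double KO, 69.3 ± 0.779 for Tet TKO and 98.7 ± 6.94 for quad KO. The large spread of the knockout sums came from collagen IV, at 1145 ± 891 CPM for Smchd1 KO and 910 ± 1197 for Double KO against 447 ± 6.4 for WT.

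**Figure D1:**
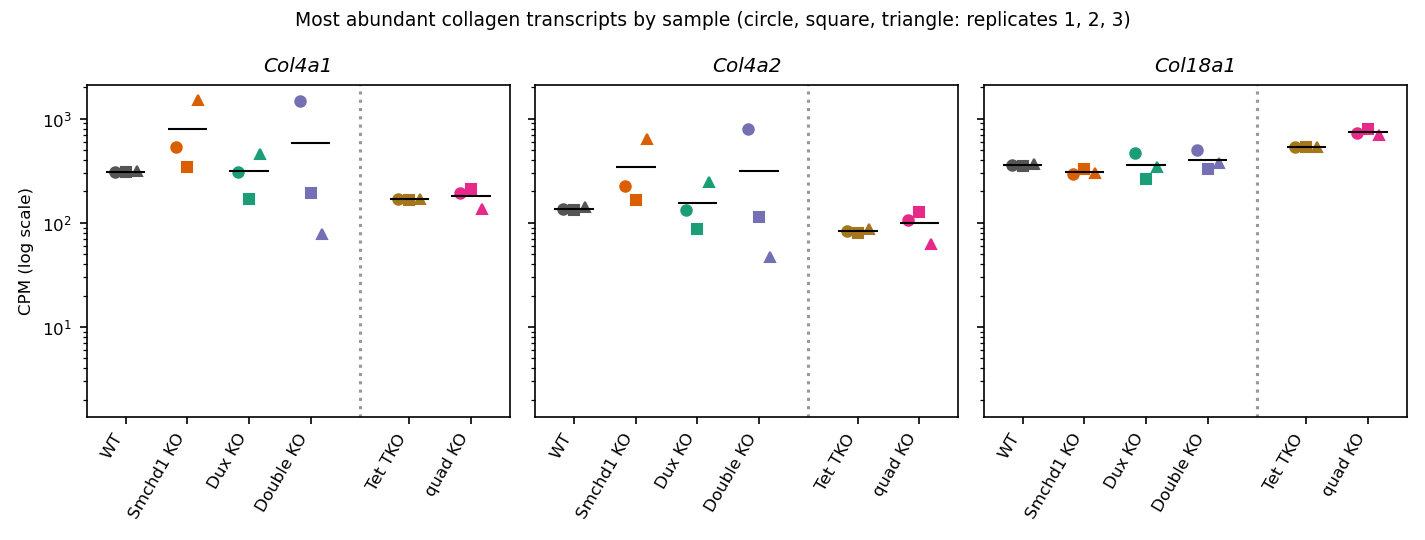
CPM of Col4a1, Col4a2 and Col18a1 in each sample, on a log scale, with replicates 1, 2 and 3 as circle, square and triangle and the genotype mean as a bar. The dotted line parts the tables; WT and Tet TKO samples lie close together, while Col4a1 runs from 343 to 1522 CPM in Smchd1 KO and from 78.4 to 1488 CPM in Double KO.

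Genes were tested with limma on log2(CPM + 0.5), and a gene was called at a Benjamini-Hochberg adjusted p under 0.05 over all genes tested. A gene was tested where at least 3 samples of a table reached 0.5 CPM. In the table of WT, 33 of the 43 collagens were tested and 10 were not. Of these 33, 23 reached 0.5 CPM in every sample. Col3a1, Col6a1, Col15a1, Col23a1 and Col25a1 were tested although at least 1 genotype stayed under that level in every sample. In the Tet table, 32 collagens were tested, 24 of them above the level in every sample. There, Col3a1 was tested through quad KO alone and Col15a1 through Tet TKO alone, so their differences were favoured by the filter. Col6a1, Col11a2 and Col25a1 had fewer than 3 Tet TKO samples at that level and passed only with quad KO, where they were higher. Their rises were favoured by the filter too.

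Losing Smchd1 in cells without the TET enzymes went with higher transcript of most collagens that were called. In quad KO vs Tet TKO, 17 collagens rose (53.1%) and 4 fell (12.5%) of the 32 tested, while 17.1% of 14920 genes rose and 20.6% fell (37.7% called in either direction). On the log2(CPM + 0.5) scale the largest rises were in Col12a1, Col4a5 and Col7a1, and the largest falls in Col13a1 and Col5a3. That order is set by the pseudocount of 0.5, which shrinks the change of low genes. By the plain ratio of mean CPM, given with no test, the rises of Col25a1 (3.79-fold), Col12a1 (3.54-fold), Col6a1 (3.44-fold) and Col4a5 (3.27-fold) exceeded that of Col7a1 (2.36-fold). So did those of Col3a1 (2.77-fold) and Col6a2 (2.58-fold). The fall of Col15a1 (2.59-fold) exceeded those of Col13a1 (2.17-fold) and Col5a3 (1.98-fold). Of the fibrillar genes 6 rose and Col5a3 fell, of 10 tested. Of the collagen IV genes Col4a5 rose, of 3 tested, and of the others 10 rose and 3 fell, of 19 tested. The median log2 difference of the 32 members was 0.48, against -0.01 over all genes. The count by edgeR was also 21 and by DESeq2 20. It ran from 15 to 23 when a replicate was left out.

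Losing Smchd1 in WT cells gave no collagen call, although most members lay higher. In Smchd1 KO vs WT, 0 of 33 collagens passed with limma, against 0.889% of 16200 genes. At an unadjusted p under 0.05, 5 were higher and 2 were lower, against 8% and 8.42% of all genes. The 3 Smchd1 KO samples lay wholly above the 3 WT samples for 21 members and wholly below for 4, against 28.2% and 29.6% of all genes. Their mean was higher for 27 members, against 50.4% of all genes. The median log2 difference was 0.55, against 0.00 over all genes. The call count depended on the model and is given with the count over all 16200 genes in brackets. It was 0 with edgeR (230), 4 with DESeq2 (1082), 15 when only these genotypes were fitted (6852) and 25 with array quality weights (9292). With Smchd1 KO 2 and the other samples with a shifted chromosome left out, a choice made after seeing the data, it was 7.

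In cells without Dux, 2 collagens that sit on the surface of fibrils, Col20a1 and Col9a2, rose. In Dux KO vs WT these were the called members of 33 (6.06%), against 3.98% of all genes in either direction, and a count this small does not set collagens apart. Higher calls alone made up 1.63% of all genes. At an unadjusted p under 0.05, 8 were higher and 3 lower, against 11.1% and 14.9% of all genes. The median log2 difference was 0.46, against -0.03 over all genes. The count, with that over all genes in brackets, was 0 after quantile normalization (344) or with no filter on low values (338). It was 4 with edgeR (933), 9 with DESeq2 (2606) and 14 with array quality weights (6431). Left out in turn, WT replicates 1, 2 and 3 and Dux KO 2 each brought it to 0, and Dux KO 3 brought it to 7.

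Losing Smchd1 in cells without Dux gave no collagen call. In Double KO vs Dux KO, 0 of 33 passed with limma, against 0.0123% of all genes. At an unadjusted p under 0.05, 12 members were higher and 0 were lower, against 4.97% and 4.8% of all genes. The samples did not overlap for 6 members, all higher in Double KO, against 3.05% of all genes. These were Col1a1, Col3a1, Col5a2, Col12a1, Col15a1 and Col22a1. Col15a1 passed the filter only with its Double KO samples, so its place here was favoured by the filter. The median log2 difference was 0.33, against -0.02 over all genes. The count was 0 with edgeR (2 over all genes) and 2 with DESeq2 (220 over all genes). It rose to 6 without Dux KO 3 and to 2 without Double KO 2 or without Double KO 3.

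In cells without Smchd1, the further loss of Dux went with higher Col3a1, Col7a1 and Col16a1. In Double KO vs Smchd1 KO these were the called members of 33 (9.09%), again a small count, against 1.4% of all genes called higher and 4.38% in either direction. At an unadjusted p under 0.05, 10 members were higher and 0 lower, against 10.3% and 14.8% of all genes. Among these 10, Col15a1 and Col25a1 passed the filter only with their Double KO samples, so their rises were favoured by the filter. The median log2 difference was 0.45, against -0.03. The count, with that over all genes in brackets, was 2 with edgeR (897) and 8 with DESeq2 (2456) or array quality weights (2673). When only these genotypes were fitted the count was 0 (121). It was 0 without Smchd1 KO 1, Smchd1 KO 3 or Double KO 1, 1 without Smchd1 KO 2 or Double KO 2, and 8 without Double KO 3. The comparisons within the table of WT share samples, and their values are set side by side only.

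Whether losing Smchd1 acted unequally with and without Dux was tested as an interaction, and none of the 33 members passed. The interaction gave 0 calls with limma and with edgeR and 1 with DESeq2, against 0.512% of all genes with limma. At an unadjusted p under 0.05, 3 members were higher and 2 lower, against 8.38% and 9.01% of all genes. The median was 0.13, against -0.02. The highest was Col3a1 at 1.91 ± 0.52 (standard error, SE) on the log2 scale, with an adjusted p of 0.111. Without Dux KO 3 the count was 1, and without Double KO 2 it was 2.

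**Figure D2:**
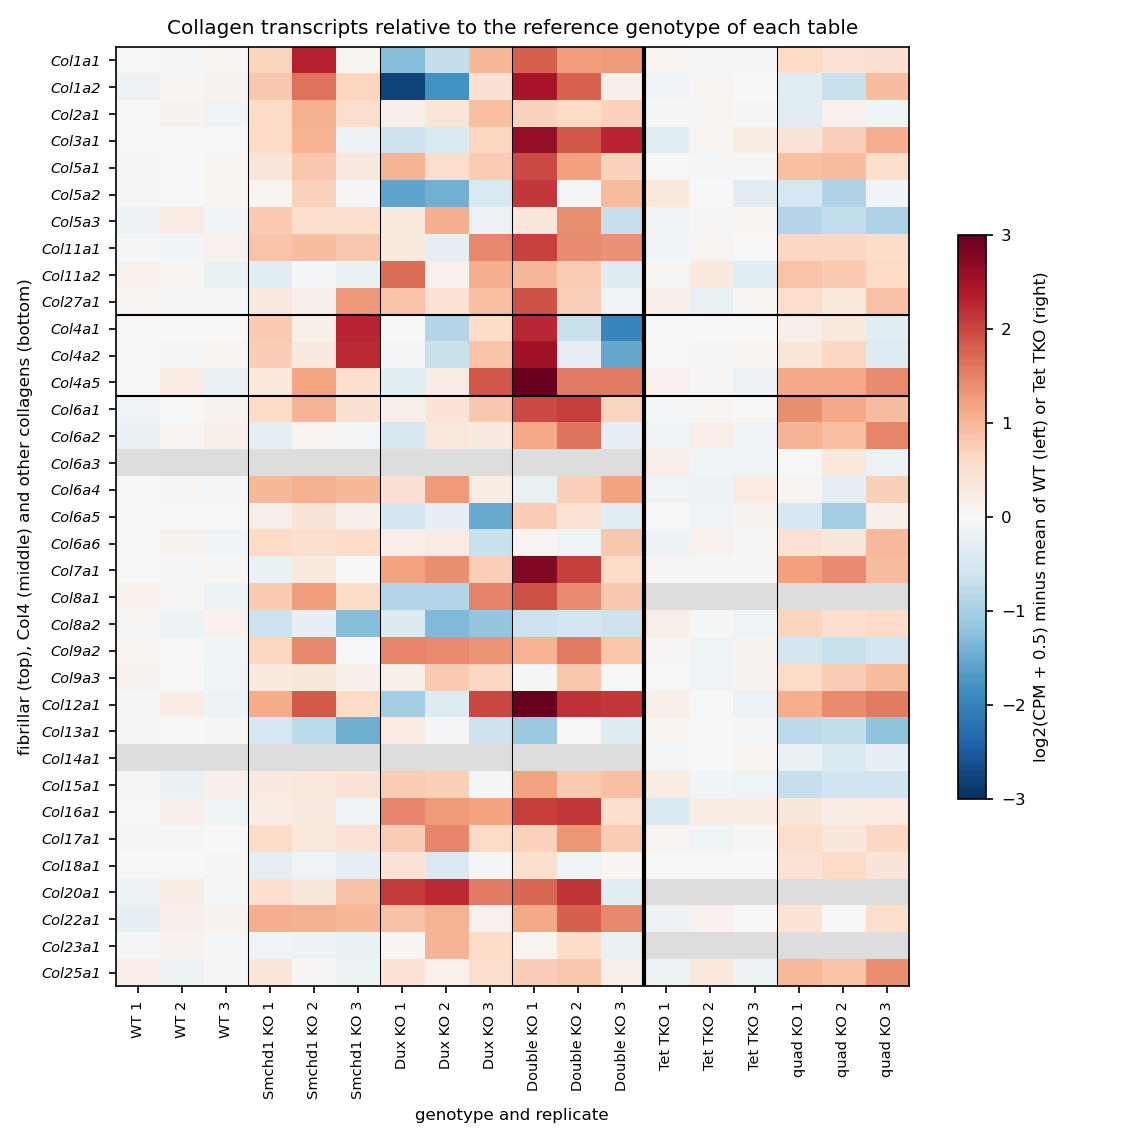
Heat map of log2(CPM + 0.5) for every collagen tested in at least 1 table, as the difference from the WT mean (left of the thick line) or the Tet TKO mean (right), for each sample in columns. Rows run from fibrillar to collagen IV to other collagens, grey marks genes not tested in that table, and Double KO 1 stands far above WT for several rows, such as Col4a5 at 12.1 CPM.

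The collagen IV chains Col4a1 and Col4a2, which join in the common basement membrane trimer, were spread widely between replicates of a knockout and were not called in any comparison by the test over all genotypes of a table. Col4a1 had 307, 310.4 and 313 CPM in WT, 533, 343 and 1522 in Smchd1 KO, 308, 168 and 456 in Dux KO and 1488, 194 and 78.4 in Double KO. Col4a2 had 135, 133 and 141 CPM in WT, 227, 164 and 640.3 in Smchd1 KO, 133, 86.2 and 246 in Dux KO and 787, 114 and 46.6 in Double KO. Both chains were highest in Smchd1 KO 3 and Double KO 1 and lowest in Double KO 3, and all 3 Smchd1 KO samples lay above WT. The log2 difference of Smchd1 KO from WT was 1.07 for Col4a1, with a 95% interval of -0.76 to 2.91, and 1.08 for Col4a2, with -0.68 to 2.84. With array quality weights both passed in Smchd1 KO vs WT, at 1.03 for Col4a1 (adjusted p = 0.00629) and 0.99 for Col4a2 (adjusted p = 0.00612). That weighted fit called 9292 of 16200 genes in this comparison, so a pass there does not set these genes apart. Without weights, the intervals of every comparison in this table spanned 0 for both genes, and those of Double KO vs Dux KO were -1.85 to 1.82 for Col4a1 and -1.57 to 1.95 for Col4a2.

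The ratio of Col4a1 to Col4a2 CPM stayed between 1.65 and 2.38 in all 18 samples while each gene moved over a wide range. In Double KO it was 1.89, 1.70 and 1.68, and in WT it was 2.28, 2.34 and 2.21. These are the head-to-head genes whose starts overlap, as described above. Both lie on chromosome 8, whose genes stood at -0.48 in Dux KO 3, the Dux KO sample with the highest Col4a1.

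Markers of endoderm, the early tissue known for making basement membrane, were summed in the same samples. The sum of 14 genes was 177, 167 and 181 CPM for the WT samples and 160.1, 74.1 and 467 CPM for Smchd1 KO. It was 221, 95.9 and 389 CPM for Dux KO and 416, 65.8 and 31.7 CPM for Double KO. The samples highest and lowest in Col4a1 were those highest and lowest in the marker sum within Smchd1 KO, within Dux KO and within Double KO. Of the 14 markers 12 were tested. Their median log2 difference was 0.05 in Smchd1 KO vs WT and -0.10 in Dux KO vs WT. It was -0.55 in Double KO vs Dux KO and -0.80 in Double KO vs Smchd1 KO. The sums are weighted to the abundant markers and do not stand for each gene of the list. Cubn led with 78.0 CPM in WT, while the WT means of Afp and Ttr were 0.00634 and 0.0245 CPM. Hnf4a rose in Smchd1 KO vs WT (log2 1.46, adjusted p = 0.0227), fell by 1.32 on the log2 scale in Double KO vs Smchd1 KO (adjusted p = 0.0224) and was the marker called in the interaction (-2.13, adjusted p = 0.0331). The part of these cells in the collagen IV levels was not tested.

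In the Tet table the collagen IV pair overlapped between the genotypes. Col4a1 had 168, 166 and 171 CPM in Tet TKO and 191, 211 and 134 in quad KO. Col4a2 had 82.7, 80.4 and 86.7 CPM in Tet TKO and 107, 128 and 63.1 in quad KO. The quad KO samples lay on both sides of Tet TKO, with quad KO 3 lowest for both genes, and the log2 differences were 0.06 (95% interval -0.28 to 0.40) and 0.19 (-0.32 to 0.71). Chromosome 8, which carries both, stood at -0.18, -0.25 and -0.27 in the quad KO samples. Without quad KO 3 both genes passed, at log2 0.26 for Col4a1 (adjusted p = 0.000949) and 0.49 for Col4a2 (adjusted p = 0.000242). With array quality weights they also passed, at 0.18 (adjusted p = 0.000575) and 0.37 (adjusted p = 5.09e-05). The estimation of these weights stopped before convergence. Over all genes 7520 passed without quad KO 3 and 10792 with the weights, against 5619 in the main fit of 14920 genes. The endoderm marker sum was 30.2 to 32.4 CPM for Tet TKO and 32.1, 30.8 and 32.4 CPM for quad KO, where quad KO 2 had the most Col4a1 and the lowest sum and quad KO 3 the least Col4a1 and the highest sum, with Ttr at 0 in every sample.

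Col4a5, an X-linked chain of specialised basement membranes, rose in quad KO. It had 0.848, 0.761 and 0.579 CPM in Tet TKO and 2.21, 2.19 and 2.76 in quad KO, with no overlap, a 2.35-fold difference (adjusted p = 0.000639). With the TET genes intact, it had 0.855, 1.12 and 0.679 CPM in WT, 1.22, 2.59 and 1.42 in Smchd1 KO, 0.597, 1.10 and 4.46 in Dux KO and 12.1, 3.55 and 3.45 in Double KO. Smchd1 KO and Double KO samples lay above WT, but no comparison there passed (Double KO vs Smchd1 KO log2 1.44, adjusted p = 0.132). The median of X-linked genes stood at -0.22 to -0.24 on the log2 scale in the quad KO samples, while Col4a5 stood at 1.23. Its neighbour Col4a6, which starts 1344 bases away on the other strand, reached 0.401, 0.353 and 0.431 CPM in quad KO against 0.170, 0.207 and 0.116 in Tet TKO and was too low to be tested. Col4a3 and Col4a4, the partners of Col4a5 in the kidney filter, stayed at or under 0.287 CPM in every sample.

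**Figure D3:**
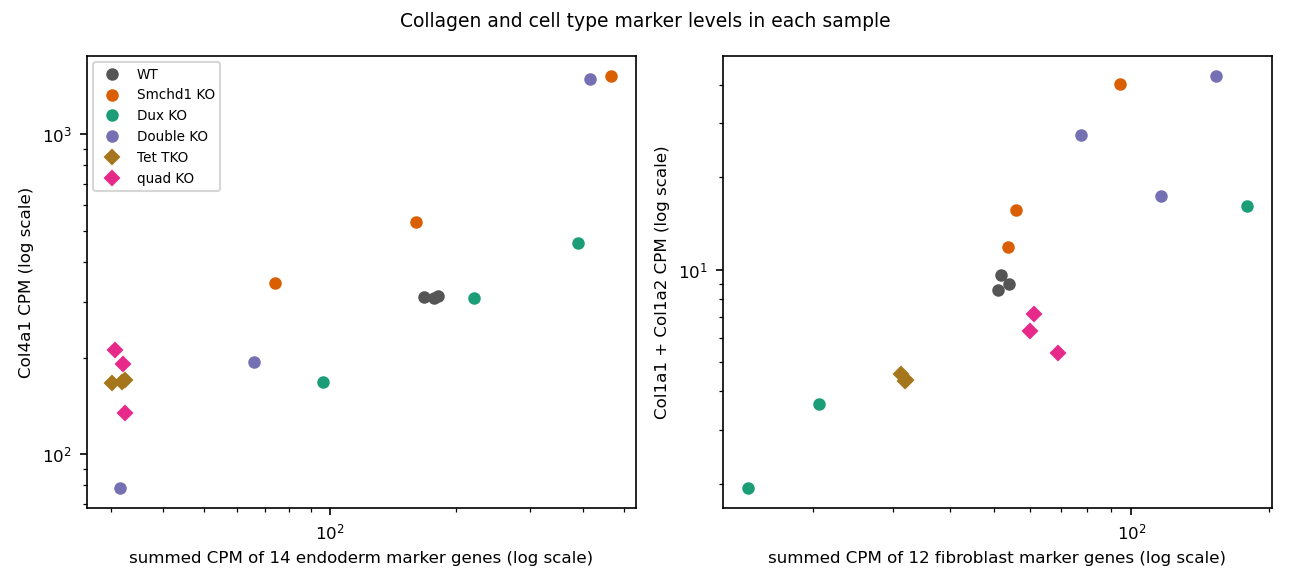
Left: Col4a1 CPM against the summed CPM of 14 endoderm markers in each sample. Right: Col1a1 plus Col1a2 CPM against 12 fibroblast markers; all axes are on a log scale, circles are samples of the table of WT and diamonds those of Tet TKO and quad KO. The Smchd1 KO and Double KO samples with the most Col4a1, 1522 and 1488 CPM, also have the largest endoderm sums, 467 and 416 CPM.

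Among fibrillar collagens, Col5a1 was the most abundant per kb. It encodes the main chain of type V collagen, which starts and limits the growth of type I fibrils. It had 34.4, 34.3 and 36.1 CPM in Tet TKO and 65.5, 66.3 and 51.0 in quad KO, and rose 1.72-fold (adjusted p = 0.000911). Where TET enzymes were present, it had 14.5, 15.3 and 15.7 CPM in WT, 19.6, 27.2 and 18.4 in Smchd1 KO, 31.2, 22.1 and 26.1 in Dux KO and 61.0, 36.1 and 25.0 in Double KO. Every knockout sample there lay above every WT sample, but neither Smchd1 KO (adjusted p = 0.387) nor Dux KO (adjusted p = 0.109) passed. The CpG-rich stretch printed above is upstream of this gene.

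The other type V chains went differently from Col5a1. Col5a3 had 4.27, 4.67 and 4.74 CPM in Tet TKO and 2.24, 2.51 and 2.15 in quad KO, and fell 1.81-fold (adjusted p = 0.000912). In the table of WT it had 5.30, 7.11 and 5.58 CPM in WT, 10.7, 8.75 and 8.53 in Smchd1 KO, 7.38, 13.2 and 5.18 in Dux KO and 7.67, 16.4 and 3.51 in Double KO. There the Smchd1 KO samples lay above WT (log2 0.60, adjusted p = 0.522) and the other knockouts overlapped it. Col5a2 had 2.20, 2.37 and 2.43 CPM in WT, 2.51, 4.05 and 2.28 in Smchd1 KO, 0.447, 0.549 and 1.57 in Dux KO and 11.8, 2.26 and 4.93 in Double KO. It was lower than WT in all 3 Dux KO samples (log2 -1.15, adjusted p = 0.142) and higher in Double KO than in Dux KO without overlap (log2 2.16, adjusted p = 0.178). In the Tet table Col5a2 had 0.916, 0.622 and 0.405 CPM in Tet TKO and 0.301, 0.106 and 0.574 in quad KO, which overlapped. Col5a2 and Col3a1 lie on chromosome 1, which stood at 0.52 in Double KO 3.

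The type I chains, the main collagen of bone and skin, were low and varied between knockout replicates. Col1a1 had 5.11, 4.84 and 5.31 CPM in WT, 8.43, 27.0 and 5.44 in Smchd1 KO, 1.79, 2.88 and 10.6 in Dux KO and 18.7, 12.7 and 13.0 in Double KO. Col1a2 had 3.44, 4.15 and 4.26 CPM in WT, 7.24, 13.3 and 6.43 in Smchd1 KO, 0.149, 0.755 and 5.57 in Dux KO and 24.1, 14.7 and 4.40 in Double KO. Col1a1 was higher in every Double KO sample than in every Dux KO sample (log2 1.78 ± 0.57 SE, adjusted p = 0.324), while Col1a2 overlapped at Double KO 3 and Dux KO 3 (log2 2.84 ± 0.72, adjusted p = 0.214). Type I collagen is a trimer with more of the Col1a1 chain. Per kilobase of exon, the ratio of Col1a2 to Col1a1 was 0.355, 0.453 and 0.424 in WT. Over the knockouts of this table it ran from 0.0440 to 0.678. The lowest was in Dux KO 1, where Col1a2 had 0.149 CPM and a single read counted for 0.0746 CPM. The ratio of plain CPM, with no scaling by exon length, was 0.672, 0.858 and 0.802 in WT. It ran from 0.0833 to 1.28 over these knockouts. Exon length here counts all annotated exons of a gene, 12.4 kb for Col1a2 and 6.56 kb for Col1a1. A single transcript can be shorter, so the ratio per kilobase depends on that count. Col1a2 lies on chromosome 6, which was shifted down in Smchd1 KO 2, Dux KO 2 and Double KO 3.

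Col1a1 rose in quad KO, from 3.83, 3.49 and 3.53 CPM in Tet TKO to 5.75, 5.02 and 5.17, a 1.41-fold difference (adjusted p = 0.00765). Its partner Col1a2 had 0.712, 0.864 and 0.810 CPM in Tet TKO and 0.535, 0.318 and 1.97 in quad KO, above Tet TKO in quad KO 3 and below it in the other two. The median of chromosome 6, which carries Col1a2, stood at -0.22 to -0.29 in quad KO. The ratio of Col1a2 to Col1a1 in plain CPM spanned 0.186 to 0.248 over the Tet TKO samples and 0.0634 to 0.382 over the quad KO samples.

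Fibroblast markers were set beside these genes. The sum of 12 markers was 50.9 to 53.8 CPM for WT, 55.8, 94.3 and 53.5 for Smchd1 KO, 14.4, 20.7 and 179 for Dux KO and 153, 77.5 and 116 for Double KO. It was 31.3 to 32 CPM for Tet TKO and 60.01 to 69.0 for quad KO. Smchd1 KO 2, Dux KO 3 and Double KO 1, each with the most Col1a1 of its genotype, also had the largest sums. The order was the opposite in the other genotypes. WT 2, Tet TKO 2 and quad KO 2 had the largest sums of their genotypes and the least Col1a1. The sum came mostly from the contractile genes Tagln and Acta2 and from Pdgfrb and Thy1: Tagln and Acta2 had 66.1 and 32.5 CPM in Double KO, while Dcn and Lum, defining genes of matrix-producing fibroblasts, had at most 0.133 CPM as a genotype mean. Of the 12, 6 were tested in each table. In quad KO vs Tet TKO 4 rose and 0 fell, against 17.1% and 20.6% of all genes, led by Acta2 (log2 1.33), Tagln (1.32) and Thy1 (0.81), and none was called in the other comparisons. The part of such cells in the type I levels was not tested.

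Col3a1, which forms the fine fibrils of vessel walls and skin, was low in WT and rose in Double KO vs Smchd1 KO. It had 0.284, 0.270 and 0.271 CPM in WT, 0.675, 1.11 and 0.181 in Smchd1 KO, 0, 0.0687 and 0.721 in Dux KO and 4.33, 2.32 and 3.27 in Double KO. The Double KO samples stood above all others, with a 3.42-fold difference from Smchd1 KO (adjusted p = 0.0256) and a log2 difference of 2.40 from Dux KO that did not pass (adjusted p = 0.133). The call was lost without Smchd1 KO 1 (adjusted p = 0.121), Smchd1 KO 3 (0.123) or Double KO 1 (0.0939), with edgeR (0.0579), with a pseudocount of 0.1 (0.0695) and when only these genotypes were fitted (0.0701). Its 3 Double KO samples alone would have carried it past the filter. Without the TET enzymes it rose 1.66-fold, from 0.136, 0.346 and 0.434 CPM in Tet TKO to 0.535, 0.813 and 1.18 in quad KO (adjusted p = 0.0346), from 29 and 72 reads in all, with a plain ratio of mean CPM of 2.77. That call was lost without Tet TKO 1 (adjusted p = 0.127), Tet TKO 2 (0.0835) or Tet TKO 3 (0.0563). Its upstream stretch, printed above, held no CpG site.

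Both type XI genes, whose product is a minor part of cartilage fibrils, rose in quad KO. Col11a1 had 2.10, 2.39 and 2.23 CPM in Tet TKO and 3.74, 3.71 and 3.48 in quad KO (1.51-fold, adjusted p = 0.0038). Col11a2 had 0.644, 0.864 and 0.376 CPM in Tet TKO and 1.5, 1.41 and 1.18 in quad KO (1.68-fold, adjusted p = 0.015). Neither overlapped, and the Col11a2 call was lost without Tet TKO 1 (adjusted p = 0.0525), Tet TKO 3 (0.0507) or quad KO 1 (0.0583). Col11a2 also passed the filter only with its quad KO samples. With intact TET genes, Col11a1 had 1.79, 1.72 and 2.08 CPM in WT, 3.79, 4.02 and 3.62 in Smchd1 KO, 2.39, 1.44 and 5.90 in Dux KO and 9.34, 5.81 and 5.59 in Double KO. Col11a2 had 1.04, 0.957 and 0.726 CPM in WT, 0.602, 0.869 and 0.716 in Smchd1 KO, 3.95, 1.03 and 2.49 in Dux KO and 2.29, 1.90 and 0.594 in Double KO. Col11a1 lay above WT in every Smchd1 KO and Double KO sample, and Col11a2 in neither genotype as a whole.

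Col27a1, a fibrillar collagen of developing cartilage, also rose in quad KO. It had 4.78, 3.56 and 4.48 CPM in Tet TKO and 6.35, 5.41 and 8.26 in quad KO (1.49-fold, adjusted p = 0.0303). The call was lost without Tet TKO 1, 2 or 3 (adjusted p = 0.0573, 0.113 and 0.0764), without quad KO 1 (0.0748) and with no filter (0.0541). In the other table it had 3.52, 3.27 and 3.29 CPM in WT, 4.11, 3.76 and 8.95 in Smchd1 KO, 6.49, 4.74 and 6.69 in Dux KO and 13.9, 5.81 and 3.09 in Double KO. All Smchd1 KO and Dux KO samples lay above WT and Double KO 3 lay below it.

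Col2a1, the main collagen of cartilage, was not called in any comparison. It had 16.5, 18.4 and 16.8 CPM in Tet TKO and 13.7, 19 and 15.8 in quad KO (log2 -0.10, 95% interval -0.37 to 0.17). With the TET genes intact, it had 4.67, 5.11 and 4.27 CPM in WT, 7.37, 10.2 and 6.95 in Smchd1 KO, 5.22, 6.11 and 9.24 in Dux KO and 7.80, 7.34 and 7.90 in Double KO. Every knockout sample there lay above WT, by log2 0.73 ± 0.22 SE in Smchd1 KO (adjusted p = 0.155). Col24a1, the remaining fibrillar gene, stayed at or under 0.395 CPM in every sample. Of 6 chondrocyte markers 4 were tested, and 3 rose in quad KO vs Tet TKO and 0 fell, against 17.1% and 20.6% of all genes: Sox9 (log2 0.93), Comp (0.56) and Acan (0.49). None was called in the other comparisons. Hapln1, which makes a link protein of cartilage, had 0.0341 CPM in Tet TKO and 0.0239 in quad KO.

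**Figure D4:**
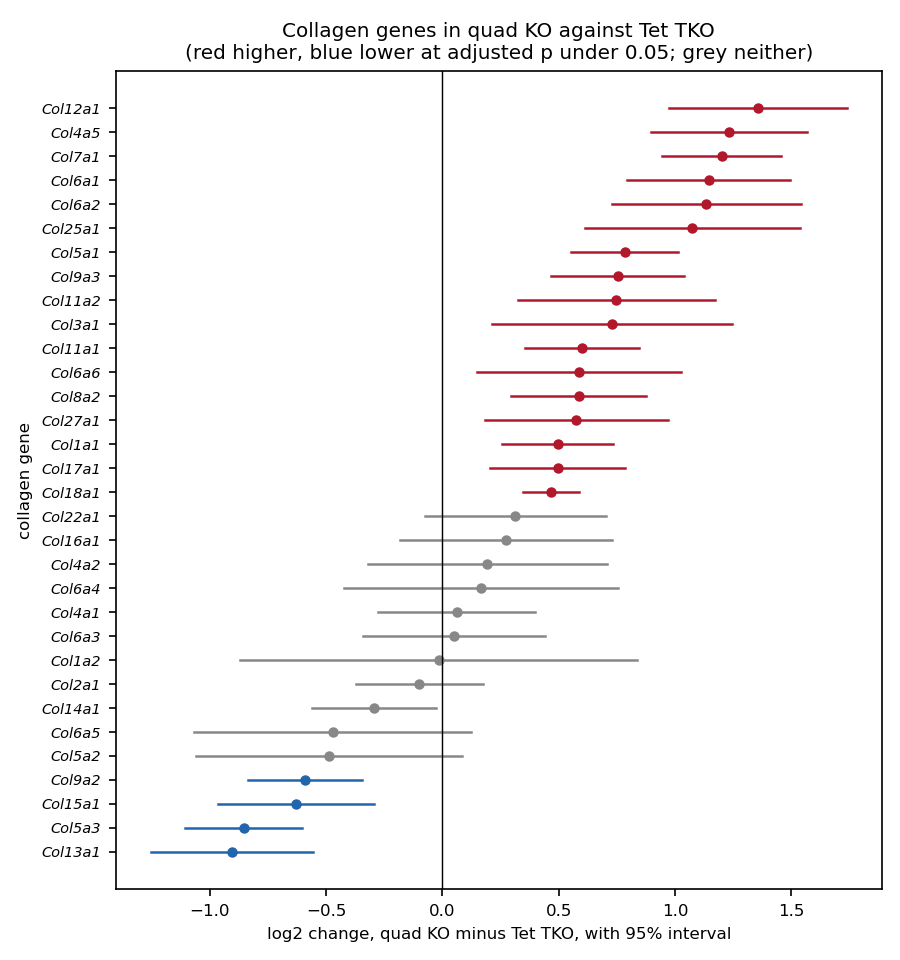
Log2 difference of quad KO from Tet TKO with its 95% interval for the 32 collagens tested. Red points are the 17 genes that rose, blue the 4 that fell and grey those not called; Col12a1 stands at 1.36 and Col13a1 at -0.91.

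Fibril-associated collagens, which lie on fibril surfaces, held both genes called in Dux KO. Col20a1 had 1.17, 1.67 and 1.31 CPM in WT, 2.15, 1.87 and 2.93 in Smchd1 KO, 7.46, 8.38 and 5.05 in Dux KO and 5.63, 7.71 and 1.01 in Double KO. Dux KO lay above WT without overlap, by log2 1.97 ± 0.49 SE (adjusted p = 0.0465), while Double KO 3 stood below WT. The call was lost without WT 1, 2 or 3 (adjusted p = 0.179, 0.158 and 0.172), without Dux KO 1 or 2 (0.0744 and 0.145), after quantile normalization (0.0606), with no filter on low values (0.0955) and with technical run 2 of WT and Smchd1 KO alone (0.0535). In cells lacking the TET enzymes Col20a1 was untested, at 0.577, 0.415 and 0.463 CPM in Tet TKO and 0.601, 0.283 and 0.144 in quad KO.

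Col9a2, a chain of the type IX collagen that coats cartilage fibrils, rose without Dux and fell in quad KO. It had 4.52, 4.35 and 4.03 CPM in WT, 7.0, 12.5 and 4.34 in Smchd1 KO, 12.8, 12.4 and 11.7 in Dux KO and 9.41, 13.6 and 8.02 in Double KO. All Dux KO and Double KO samples lay above WT, and Dux KO vs WT differed 2.67-fold (adjusted p = 0.0318). Without WT 1, 2 or 3 the adjusted p was 0.143, 0.14 and 0.152, and without Dux KO 2 it was 0.0973. It was 0.0583 with no filter and 0.0501 after quantile normalization. In the Tet table Col9a2 had 6.61, 5.77 and 6.89 CPM in Tet TKO and 4.24, 3.85 and 4.16 in quad KO and fell 1.51-fold (adjusted p = 0.00398).

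Its partner chain Col9a3 rose where Col9a2 fell. Col9a3 had 4.55, 4.18 and 4.92 CPM in Tet TKO and 6.98, 7.92 and 9.23 in quad KO (1.69-fold higher, adjusted p = 0.00273). Where TET enzymes were present, it had 3.88, 3.59 and 3.26 CPM in WT, 4.53, 4.64 and 4.05 in Smchd1 KO, 4.10, 6.46 and 5.77 in Dux KO and 3.40, 6.79 and 3.62 in Double KO. The Dux KO difference from WT was log2 0.52, with an adjusted p of 0.207. Col9a1, the other type IX chain, had at most 0.433 CPM in any sample.

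Col12a1, which binds type I fibrils, had the largest rise of any tested collagen in quad KO on the log2(CPM + 0.5) scale. It had 0.984, 0.795 and 0.665 CPM in Tet TKO and 2.27, 3.0 and 3.37 in quad KO (2.56-fold, adjusted p = 0.000751). In the other table it had 1.06, 1.41 and 0.971 CPM in WT, 3.02, 5.41 and 1.94 in Smchd1 KO, 0.298, 0.755 and 6.03 in Dux KO and 18.7, 7.03 and 6.60 in Double KO. Double KO lay above Dux KO without overlap (log2 2.43 ± 0.65 SE, adjusted p = 0.229), and Dux KO 3 stood apart from the other Dux KO samples, as it did for Col1a1, Col1a2 and the fibroblast marker sum.

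Col16a1, another collagen of fibril surfaces, rose in Double KO vs Smchd1 KO. It had 0.941, 1.11 and 0.831 CPM in WT, 1.21, 1.25 and 0.848 in Smchd1 KO, 3.50, 3.02 and 2.88 in Dux KO and 5.63, 5.81 and 1.60 in Double KO. The Double KO samples lay 2.72-fold above Smchd1 KO without overlap (adjusted p = 0.0399), and Dux KO vs WT missed the threshold at 2.49-fold (adjusted p = 0.0565). The call was lost without Smchd1 KO 1, 2 or 3 (adjusted p = 0.166, 0.1 and 0.151) and without Double KO 1 or 2 (0.141 and 0.0679), with no filter (0.0797) and when only these genotypes were fitted (0.118). Without the TET enzymes it had 1.12, 2.11 and 2.11 CPM in Tet TKO and 2.34, 2.09 and 2.15 in quad KO, which overlapped.

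Col22a1, known from tendon and muscle junctions, had the smallest unadjusted p of any collagen in Smchd1 KO vs WT. It had 1.84, 2.60 and 2.53 CPM in WT, 5.50, 5.41 and 5.05 in Smchd1 KO, 4.70, 5.22 and 2.56 in Dux KO and 5.63, 9.17 and 7.07 in Double KO. Smchd1 KO was higher by log2 1.05 ± 0.26 SE without overlap, and the limma adjusted p was 0.087. In cells lacking the TET enzymes it had 1.15, 1.52 and 1.36 CPM in Tet TKO and 1.94, 1.34 and 2.15 in quad KO, which overlapped. Col14a1 was tested in the Tet table alone, where it was lower in quad KO without overlap (log2 -0.29, adjusted p = 0.0796), and Col19a1 reached at most 0.431 CPM.

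Collagen VI, which forms beaded filaments around cells, is built from Col6a1, Col6a2 and one of several further chains. Both obligate chains rose in quad KO. Col6a1 had 0.475, 0.553 and 0.492 CPM in Tet TKO and 2.14, 1.70 and 1.40 in quad KO (2.21-fold, adjusted p = 0.00109). Col6a2 had 1.49, 1.97 and 1.5 CPM in Tet TKO and 3.84, 3.53 and 5.46 in quad KO (2.20-fold, adjusted p = 0.00209). The groups did not overlap for either gene, though Col6a1 passed the filter only with its quad KO samples. In the other table Col6a1 had 0.288, 0.335 and 0.410 CPM in WT, 0.758, 1.21 and 0.648 in Smchd1 KO, 0.447, 0.618 and 0.983 in Dux KO and 2.85, 3.06 and 0.832 in Double KO. Col6a2 had 1.56, 1.96 and 2.14 CPM in WT, 1.43, 2.01 and 1.82 in Smchd1 KO, 1.19, 2.47 and 2.36 in Dux KO and 4.76, 6.73 and 1.49 in Double KO. Both were highest in Double KO 1 and 2 and back near the level of the other genotypes in Double KO 3, and none of these comparisons passed.

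Of the alternative further chains, Col6a6 rose in quad KO and the others were not called. Col6a6 had 0.644, 0.899 and 0.810 CPM in Tet TKO and 1.24, 1.13 and 2.01 in quad KO (1.5-fold, adjusted p = 0.0419). That call was lost without Tet TKO 1, 2 or 3 (adjusted p = 0.146, 0.0823 and 0.107), without quad KO 1 or 3 (0.0691 and 0.0599), with DESeq2 (0.0555), with no filter (0.0722) and with chromosome medians centred (0.0518). Where the TET genes were intact it had 0.892, 1.03 and 0.832 CPM in WT, 1.66, 1.49 and 1.56 in Smchd1 KO, 1.12, 1.17 and 0.393 in Dux KO and 0.990, 0.795 and 1.96 in Double KO, with Smchd1 KO above WT (adjusted p = 0.346).

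Col6a5 and Col6a4 had the most transcript per kb of these alternative chains in every genotype. Col6a4 had 3.33, 3.36 and 3.19 CPM in WT, 7.03, 7.44 and 7.08 in Smchd1 KO, 4.70, 8.72 and 3.93 in Dux KO and 2.72, 5.69 and 8.26 in Double KO. The Smchd1 KO samples were close together and 2.03-fold above WT, with a limma adjusted p of 0.186. Col6a5 had 9.81, 9.62 and 9.91 CPM in WT, 11.1, 12.9 and 10.9 in Smchd1 KO, 6.41, 8.17 and 3.08 in Dux KO and 16.7, 13.3 and 7.61 in Double KO. It was below WT in all Dux KO samples (log2 -0.78, adjusted p = 0.153). In the Tet table Col6a4 had 1.42, 1.35 and 1.94 CPM in Tet TKO and 1.67, 1.17 and 2.87 in quad KO, and Col6a5 had 19, 17.4 and 20.3 and 12.9, 8.94 and 20.9 CPM. Both genes overlapped there, as did Col6a3 at 0.467 to 0.848 CPM over both genotypes.

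Col7a1, the collagen of the anchoring fibrils that tie skin epithelium to the dermis, rose in 2 comparisons. It had 4.23, 4.13 and 4.35 CPM in WT, 3.61, 5.27 and 4.30 in Smchd1 KO, 10.4, 12 and 7.21 in Dux KO and 31.9, 19.5 and 6.65 in Double KO. Smchd1 KO overlapped WT, and every sample without Dux lay above both. Double KO vs Smchd1 KO differed 3.44-fold (adjusted p = 0.0382), and Dux KO vs WT differed 2.15-fold and did not pass (adjusted p = 0.131). The call was lost without Smchd1 KO 1, 2 or 3 (adjusted p = 0.179, 0.0892 and 0.133) and without Double KO 1 or 2 (0.12 and 0.0589), with no filter (0.0679) and when only these genotypes were fitted (0.111). Without the TET enzymes it had 17.0, 15.8 and 16.8 CPM in Tet TKO and 39.6, 44.6 and 32.5 in quad KO, a 2.30-fold rise (adjusted p = 0.000241).

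Among the membrane-spanning collagens, Col13a1 had the most transcript per kb in every genotype but quad KO, where it fell. It is found at cell adhesion sites and nerve-muscle contacts. It had 3.09, 2.94 and 2.86 CPM in Tet TKO and 1.5, 1.59 and 1.01 in quad KO (1.87-fold lower, adjusted p = 0.00288). With the TET genes intact, it had 15.0, 15.4 and 15.9 CPM in WT, 10.5, 8.54 and 5.23 in Smchd1 KO, 18.3, 14.8 and 9.90 in Dux KO and 6.87, 15.5 and 11.9 in Double KO. The Smchd1 KO samples lay below WT without overlap (log2 -0.94 ± 0.31 SE), with an adjusted p of 0.187, and Double KO overlapped Dux KO.

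Col17a1, a part of the hemidesmosomes of epithelia, and Col25a1, a collagen of neurons, both rose in quad KO. Col17a1 had 2.34, 1.94 and 2.26 CPM in Tet TKO and 3.34, 2.90 and 3.59 in quad KO (1.41-fold, adjusted p = 0.0169). Col25a1 had 0.237, 0.519 and 0.231 CPM in Tet TKO and 1.10, 0.990 and 1.65 in quad KO (2.11-fold, adjusted p = 0.00467), which rests on 30 and 107 reads in all; the plain ratio of its mean CPM was 3.79. Col25a1 passed the filter only with its quad KO samples, where it was higher. The Col17a1 call was lost without Tet TKO 2 (adjusted p = 0.076), Tet TKO 3 (0.0531) or quad KO 1 (0.0541) and with no filter (0.0539). In the table of WT, Col17a1 had 2.24, 2.40 and 2.33 CPM in WT, 3.69, 3.03 and 3.29 in Smchd1 KO, 4.25, 7.28 and 3.74 in Dux KO and 4.08, 6.60 and 4.28 in Double KO. Every knockout sample exceeded every WT sample, and Dux KO vs WT had an adjusted p of 0.0578. Col25a1 had 0.310, 0.137 and 0.189 CPM in WT, 0.413, 0.225 and 0.133 in Smchd1 KO, 0.447, 0.275 and 0.524 in Dux KO and 0.681, 0.734 and 0.297 in Double KO, and Col23a1, the fourth of this class, had at most 1.65 CPM.

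The multiplexins Col18a1 and Col15a1, basement membrane collagens that carry sugar chains and release endostatin and a related fragment, moved in opposite directions in quad KO. Col18a1 had 535, 533 and 538 CPM in Tet TKO and 724, 802 and 698 in quad KO and rose 1.38-fold (adjusted p = 0.000499). Col15a1 had 0.882, 0.622 and 0.579 CPM in Tet TKO and 0.234, 0.283 and 0.287 in quad KO and fell 1.55-fold (adjusted p = 0.0117), from 64 and 23 reads in all, a 2.59-fold ratio of mean CPM. Among all collagens Col18a1 had the largest difference in mean CPM between quad KO and Tet TKO.

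In the table of WT, Col18a1 had 355, 352 and 366 CPM in WT, 291, 328 and 300.4 in Smchd1 KO, 465, 261 and 346 in Dux KO and 496, 327 and 371 in Double KO. The Smchd1 KO samples lay below WT (log2 -0.23, adjusted p = 0.594), a difference that passed when these genotypes were fitted alone (adjusted p = 0.0118) or with array quality weights (0.00172). Col15a1 had 0.161, 0.0649 and 0.217 CPM in WT, 0.276, 0.299 and 0.362 in Smchd1 KO, 0.597, 0.549 and 0.131 in Dux KO and 0.990, 0.612 and 0.713 in Double KO. It was highest in Double KO, and no comparison passed.

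Col8a2, a short-chain collagen of the corneal basement membrane, rose in quad KO and was lower than WT in the single and double knockouts. It had 2.24, 1.83 and 1.74 CPM in Tet TKO and 3.37, 2.93 and 3.12 in quad KO (1.5-fold, adjusted p = 0.00871). Where TET enzymes were present, it had 2.88, 2.47 and 3.14 CPM in WT, 1.62, 2.31 and 0.876 in Smchd1 KO, 2.01, 0.824 and 0.983 in Dux KO and 1.61, 1.71 and 1.66 in Double KO. All 9 knockout samples lay below WT, with log2 -0.96 in Dux KO (adjusted p = 0.0757) and -0.72 in Smchd1 KO (adjusted p = 0.252). Of the remaining members, Col8a1 reached 2.97 CPM in Double KO 1, and Col10a1 at most 0.122 CPM, with no read in the Tet table. Col28a1, on chromosome 6, was too low to be tested, but its Smchd1 KO samples, at 0.114 to 0.281 CPM, lay above its WT samples, at most 0.0212 CPM, from 35 and 4 reads in all.

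Genes that make and process collagen did not move as a block with it. In quad KO vs Tet TKO, 2 of 21 tested genes for hydroxylation, folding and export rose and 6 fell. Leprel1, a prolyl 3-hydroxylase now named P3h2, rose (log2 1.04), while its relative Lepre1 fell by 0.81 and Glt25d1, which adds galactose to collagen, fell by 0.56 on that scale. Of 15 genes for trimming and cross-linking, 5 rose and 1 fell. Lox, which oxidises lysines so that fibrils can cross-link, rose most (log2 1.34), followed by the procollagen C-proteinase Bmp1 (1.10) and by Pxdn (0.82), which cross-links collagen IV. The background was 17.1% higher and 20.6% lower, and the list medians were -0.11 and -0.06 against -0.01 over all genes.

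Partners of collagen were split as well in quad KO, where 17.1% of all genes rose and 20.6% fell. Of 15 basement membrane partners 4 rose and 4 fell: the laminin chain Lama1 fell by 1.90 on the log2 scale, while Lamb3 (0.94) and Lama4 (0.63) rose. Of 9 collagen receptors 3 rose and 3 fell: Ddr2, a receptor kinase for fibrillar collagen, fell by 1.64, while the integrin chains Itga11 (0.65) and Itga3 (0.59) rose. Of 8 degradation genes 4 rose and 0 fell, led by the proteases' inhibitor Timp2 (0.81) and the gelatinases Mmp9 (0.82) and Mmp2 (0.45). ES markers fell more often than they rose, 7 against 2 of 12, led by Nanog (-2.40), Esrrb (-1.92) and Klf4 (-1.74). Endoderm markers were evenly split, with 3 of 11 higher (Gata4, Dab2 and Thbd) and 3 lower. Those that fell were Hnf4a (-1.69), Gata6 (-1.15) and Sox7 (-1.13). The part of these marker changes in the collagen values was not tested.

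In the table of WT few of these genes were called. Dux KO vs WT called Nid1, a nidogen that links laminin to collagen IV, higher (log2 1.04, adjusted p = 0.0238), and Fkbp10, a collagen folding enzyme, lower by 0.80 (adjusted p = 0.0281). The ES marker Utf1 fell by 0.75 (adjusted p = 0.0311). Double KO vs Smchd1 KO called the fibronectin gene Fn1 higher (log2 0.64, adjusted p = 0.0257) and the ES markers Fgf4 and Tdgf1 lower by 1.02 and 0.98 (adjusted p = 0.0168 and 0.0218). In Smchd1 KO vs WT and in Double KO vs Dux KO no gene of the 5 matrix lists passed with limma.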

How the data were processed

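RNA-seq of mouse ES cells was used, with 24 libraries from 18 biological samples, since WT and Smchd1 KO samples were each sequenced in 2 technical runs. The authors trimmed and aligned reads with Trim Galore and STAR 2.5.1 and used limma 3.38.2 and build mm9, per the submitters' processing notes. The deposited values are a signal in CPM of an effective library size, and 2 tables of 37310 entries were deposited. Column totals run from 906871 to 1054029 and from 973442 to 1000742. Division of the deposited signal by each library's step gave whole reads, within 0.1, for 100% of values below 200 reads, so counts were recovered. The second table holds 3 columns of per-sample values that match no sample. They were not used, so Tet TKO vs WT was not analysed here. Smchd1 KO columns carry no sample label. They were joined in pairs whose difference was 1.36 to 1.69 times counting noise, against 3.34 to 13.6 between other columns.

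Technical runs were averaged. Genes that reached 0.5 CPM in 3 or more samples were fitted with limma 3.58.1 (R 4.3.3, trend) on log2(CPM + 0.5), all genotypes of a table together, with Benjamini-Hochberg adjustment over all 16200 or 14920 genes. Fold changes are on the log2(CPM + 0.5) scale, which understates the change of low genes. The limma intervals are at 95%. edgeR 4.0.16 and DESeq2 1.42.0 on recovered reads, other filters, pseudocounts, normalizations and samples were alternatives. The fits were tested on simulated data. Exon lengths came from GENCODE mm10 models, as the bases covered by any annotated exon of a gene, and promoter windows from RefSeq.

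Every collagen called in a comparison, or with a mean of at least 5 CPM in a genotype, was named with all its values. The others are given by class. Of each gene list, at most 3 called genes with the largest change were named per comparison, and the endoderm markers that rose in quad KO were named as well. Members and lists were chosen with earlier results of these data known.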

Additional observations from a re-analysis of the deposited data

Results flagged for a closer look

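For 4 of the 30 collagens tested in both tables (13.3%), against 15.0% of 14549 genes, the Smchd1 KO samples all lay on one side of WT and the quad KO samples all on the opposite side of Tet TKO. This share is near that of all genes and does not set collagens apart. The tables were normalized separately, the difference between the effects was not tested, and of the values that follow only those of quad KO vs Tet TKO passed the limma threshold. Col5a3 stood at log2 0.60 in Smchd1 KO vs WT and -0.85 in quad KO vs Tet TKO, and Col15a1 at 0.33 and -0.63. Col8a2 stood at -0.72 and 0.59, and Col18a1 at -0.23 and 0.47. With Dux KO as the background, 1 of 30 collagens and 1.15% of genes lay on opposite sides: Col15a1, at 0.49 in Double KO vs Dux KO and -0.63 in quad KO vs Tet TKO. Col15a1 passed the filter of the Tet table through Tet TKO alone, where it was higher, so its fall there was favoured by the filter and supports no difference between the backgrounds.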

How the results depend on the processing

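In quad KO vs Tet TKO the count of called collagens, 21, stayed within 15 to 30 under every alternative run, where 30 came from array quality weights whose estimation stopped before convergence in the Tet table. In the table of WT the counts were small and moved. In Smchd1 KO vs WT (0 called) it was 25 with array quality weights, 15 with these genotypes fitted alone, 4 with DESeq2 and 7 once shifted samples (Smchd1 KO 2, Dux KO 2, Dux KO 3 and Double KO 3, whose median on a chromosome was off by over 0.4) were left out, a choice made after seeing the data. That choice leaves 1 Dux KO sample, so without shifted samples every count that involves Dux KO assumes that this lone sample varies like the other genotypes. In Dux KO vs WT (2 called) it was 0 with no filter and 0 after quantile normalization, 14 with weights, 4 with edgeR, 9 with DESeq2, 5 with these genotypes alone, 4 with technical run 1 alone, 1 with run 2 alone and 11 without shifted samples. In Double KO vs Dux KO (0 called) it was 1 with a pseudocount of 2, 2 with DESeq2 and 12 without shifted samples. In Double KO vs Smchd1 KO (3 called) it was 8 with weights, 8 with DESeq2, 0 with these genotypes alone and 18 without shifted samples. The interaction (0 called) gave 5 with weights, 1 with DESeq2 and 8 without shifted samples. Leaving out 1 replicate gave 0 to 7 in Dux KO vs WT, 0 to 6 in Double KO vs Dux KO, 0 to 8 in Double KO vs Smchd1 KO and 0 to 2 in the interaction. The cause was not tested.

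The leading genes changed sign under some settings in comparisons where they were not called. For Col4a1, Double KO vs Dux KO gave 1.083 with weights, 0.943 with edgeR, 0.943 with DESeq2 and 0.805 without shifted samples, and -1.213 to 0.906 with 1 replicate left out. Dux KO vs WT gave 0.044 with edgeR, 0.034 with DESeq2, 0.121 with chromosome medians centred and -0.446 to 0.272 with 1 replicate left out. The Col4a1 interaction gave 0.052 with weights, and quad KO vs Tet TKO -0.070 to 0.255 with 1 replicate left out. For Col4a2, Dux KO vs WT gave -0.394 with weights, -0.035 without shifted samples and -0.346 to 0.409 with 1 replicate left out. Its interaction gave 0.242 with weights and -2.028 to 0.003 with 1 replicate left out, and the ranges were -0.948 to 1.082 in Double KO vs Dux KO, -1.974 to 0.057 in Double KO vs Smchd1 KO and -0.017 to 0.488 in quad KO vs Tet TKO. For Col18a1, Dux KO vs WT gave 0.120 after quantile normalization, 0.034 with edgeR, 0.025 with DESeq2, 0.020 with medians centred, 0.379 without shifted samples and -0.252 to 0.165 with 1 replicate left out. Double KO vs Dux KO gave -0.208 without shifted samples and -0.033 to 0.384 with 1 replicate left out. Of 26 called gene results, 16 kept their call and direction under every alternative run in which the gene was tested. Some were not tested in all runs. In quad KO vs Tet TKO, Col15a1 was tested in 12 alternatives and Col6a1 and Col25a1 in 15, against 16 for Col5a1.

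Replicate numbers did not pair the samples: deviations of same-numbered samples correlated at 0.03 to 0.23 between WT and Dux KO or Double KO, at 0.07, 0.47 and -0.13 between Dux KO and Double KO and at -0.03 to 0.02 between Tet TKO and quad KO. With a replicate block the count was 4 in Dux KO vs WT, 0 in Double KO vs Dux KO and 20 in quad KO vs Tet TKO, where Col6a6 then had an adjusted p of 0.0509.

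Calls over all genes also moved. For Smchd1 KO vs WT the count was 144, and 9292 with weights, 6852 with these genotypes alone, 1082 with DESeq2, 230 with edgeR, 71 with a filter of 2 CPM and 37 to 56 with 1 replicate left out. For Dux KO vs WT it was 644, and 338 with no filter, 344 after quantile normalization, 6431 with weights, 2606 with DESeq2, 1406 with the replicate block, 368 with run 2 alone and 2 to 2797 with 1 replicate left out. For Double KO vs Dux KO it was 2, and 12 with no filter, 220 with DESeq2, 0 with these genotypes alone, 1 with the block and 0 to 146 with 1 replicate left out. For Double KO vs Smchd1 KO it was 709, and 2673 with weights, 2456 with DESeq2, 121 with these genotypes alone and 50 to 2422 with 1 replicate left out. For the interaction it was 83, and 9 with a pseudocount of 0.1, 11 with a filter of 2 CPM, 2242 with weights, 7 with edgeR, 946 with DESeq2, 48 with run 2 alone and 0 to 1216 with 1 replicate left out. For quad KO vs Tet TKO it was 5619, 10792 with weights and as low as 3329 with 1 replicate left out. Without shifted samples the 5 counts of the table of WT were 2714, 5394, 3307, 5671 and 1634, in the order given, of which 5394, 3307 and 1634 rest on the lone Dux KO sample. In the table of WT 10 collagens did not reach the filter, which is set in CPM, and the part of depth in this was not tested.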
